A study of Mus musculus with 17 samples.

Results

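Tau, encoded by Mapt, and 9 other genes of microtubule-associated and tubulin-binding proteins were examined in bulk RNA sequencing of the mouse prefrontal cortex. The 10 genes, Mapt, Map1a, Map1b, Map2, Map4, Map6, Map7, Map9, Stmn1 and Stmn2, were chosen by name from the 56953 genes of the count table. All 10 had counts in each of the 17 libraries, with a lowest count of 807, and all passed the filter on low counts that left 23062 genes for testing. The libraries came from 5 WT mice, 6 PS19 mice (hTau in the labels) and 6 CgA-KO/PS19 mice (CgA-KO/hTau in the labels), at 8 months of age per the labels. PS19 mice carry a heterozygous human Tau transgene with the P301S mutation, driven by the Prnp promoter, and keep their own Mapt gene. CgA-KO/PS19 mice carry the same transgene and lack Chga, the gene of chromogranin A, in the whole body from birth. A CgA-KO group without the transgene was not analysed here, so the comparison of CgA-KO/PS19 with PS19 bears on the knockout in the transgenic background only.

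Microtubules are polymers of tubulin that form the tracks for transport in axons and dendrites. Tau is found mainly in axons and Map2 mainly in dendrites, and with the widely expressed Map4 they form a family that binds microtubules through related repeats near the carboxyl end. Map1a and Map1b are a separate pair, of which Map1b prevails in growing and Map1a in mature neurons. Map6 stabilises microtubules against cold, Map7 recruits kinesin-1 and Map9 is a spindle and cilium protein, while the stathmins Stmn1 and Stmn2 bind free tubulin and favour disassembly. In tauopathies Tau leaves the microtubule and aggregates.

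To show how closely the genes resemble each other over the length of 1 sequencing read, the most alike coding windows of 100 bases are given for the 2 closest pairs from GENCODE M21 on GRCm38, 5′ to 3′, with capitals marking bases identical in both genes of a pair. The stathmins were the most alike, with 87 of 100 bases identical and a longest shared run of 43 bases, in single exons at chr4:134472822-134472921 (+) for Stmn1 and chr3:8554810-8554909 (+) for Stmn2.
Stmn1: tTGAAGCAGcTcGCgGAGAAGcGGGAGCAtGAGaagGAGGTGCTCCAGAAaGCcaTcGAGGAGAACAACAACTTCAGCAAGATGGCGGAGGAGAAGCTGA
Stmn2: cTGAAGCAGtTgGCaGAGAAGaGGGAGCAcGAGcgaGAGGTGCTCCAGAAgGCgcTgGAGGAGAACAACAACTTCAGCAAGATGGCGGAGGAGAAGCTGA
For Map1a, at chr2:121299467-121299566 (+), and Map1b, at chr13:99435398-99435497 (- strand), 85 of 100 bases were identical and the longest shared run was 26 bases.
Map1a: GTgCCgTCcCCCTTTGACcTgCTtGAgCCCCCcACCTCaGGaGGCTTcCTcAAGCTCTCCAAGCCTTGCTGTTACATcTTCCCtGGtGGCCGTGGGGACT
Map1b: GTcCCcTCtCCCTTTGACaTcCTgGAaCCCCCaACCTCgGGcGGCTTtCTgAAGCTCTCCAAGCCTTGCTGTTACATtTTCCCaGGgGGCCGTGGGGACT
The windows held 13 differences between the stathmins and 15 between Map1a and Map1b. Beyond the stathmins and the Map1 pair, no 2 of the genes shared a run longer than 17 bases. Exons of Map1a overlap Ppip5k1, those of Map2 and Map7 overlap the antisense genes Gm10558 and Gm48249, and those of Stmn1 overlap the miRNA gene Gm23634. Whether counting used the strand is not given in the sources used here, so the counts of Map1a, Map2 and Map7 are uncertain to that extent, while Gm23634 lies on the same strand as Stmn1. Mapt is uncertain in another way, since reads of the human transgene that align to mouse Mapt cannot be told apart from its own.

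Depth and library composition differed within genotypes. The Y-linked gene Ddx3y, on the log2(CPM + 1) scale, was at 5.67 to 6.28 in the 9 libraries numbered 1 to 3 of each genotype and at 0 to 0.08 in the other 8, so the replicate numbers and this sex-linked gene cannot be told apart. Totals were 8838334 to 227651681 counts, and the smallest library was WT replicate 4. Mitochondrial genes took 13.8 to 18.2% of counts in CgA-KO/PS19 replicates 1 to 3, 3.84 to 10.9% in replicates 4 to 6, 2.56 to 4.59% in PS19 and 3.53 to 7.94% in WT. The cortical glutamatergic markers Slc17a7, Tbr1 and Neurod6 had counts in all libraries. Levels are in CPM (counts relative to the TMM-normalized size of each library). All 9 markers of striatal neurons were also called higher in WT than in PS19, with summed levels of 1075 to 3121 CPM in WT, 152 to 207 CPM in PS19 and 188 to 1726 CPM in CgA-KO/PS19. In CgA-KO/PS19 against PS19, 7 of these 9 markers were called higher. The 3 choroid plexus markers summed to 1061 CPM in WT replicate 5, 8.76 to 12.7 CPM in the other WT libraries, at most 4.0 CPM in PS19 and 5.96 to 9.96 CPM in CgA-KO/PS19, and Ttr and Kl among them were called higher in WT than in PS19. Their part in the results was not tested. Chga had 0 counts in the 6 CgA-KO/PS19 libraries and 152 to 180 CPM in the others. Prnp, whose promoter drives the transgene, was at 748 to 914 CPM in WT, 1974 to 2368 CPM in PS19 and 1236 to 2078 CPM in CgA-KO/PS19. In tissue RNA, fewer cells of a type and less RNA per cell cannot be told apart.

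Levels were first compared between genes per kb of exon. In PS19, Stmn1 was highest at 224 ± 17.3 CPM per kb (SD, n = 6), followed by Map1a at 158 ± 16.4, Mapt at 115 ± 5.69, Map1b at 105 ± 11.6 and Stmn2 at 64.6 ± 2.89. Map9 at 33.9 ± 2.37, Map4 at 27.5 ± 0.63, Map2 at 18.3 ± 3.69, Map6 at 14.7 ± 0.75 and Map7 at 9.51 ± 0.70 CPM per kb completed the order. Of these neighbours, Mapt and Map1b overlapped between libraries, as did Map2 and Map6. In WT, Map1b at 128 ± 36.6 CPM per kb (SD, n = 5) stood second by mean and overlapped with Map1a at 122 ± 6.84. It was above Map1a in 2 of the 5 WT libraries, and replicate 4 was its highest at 190 CPM per kb. In CgA-KO/PS19, Map4 at 32.7 ± 3.97, Map9 at 31.8 ± 10.2 and Map2 at 30.7 ± 16.6 CPM per kb (SD, n = 6) overlapped with each other. Length was the union of all annotated exons of a gene, untranslated ones included.

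**Figure D1:**
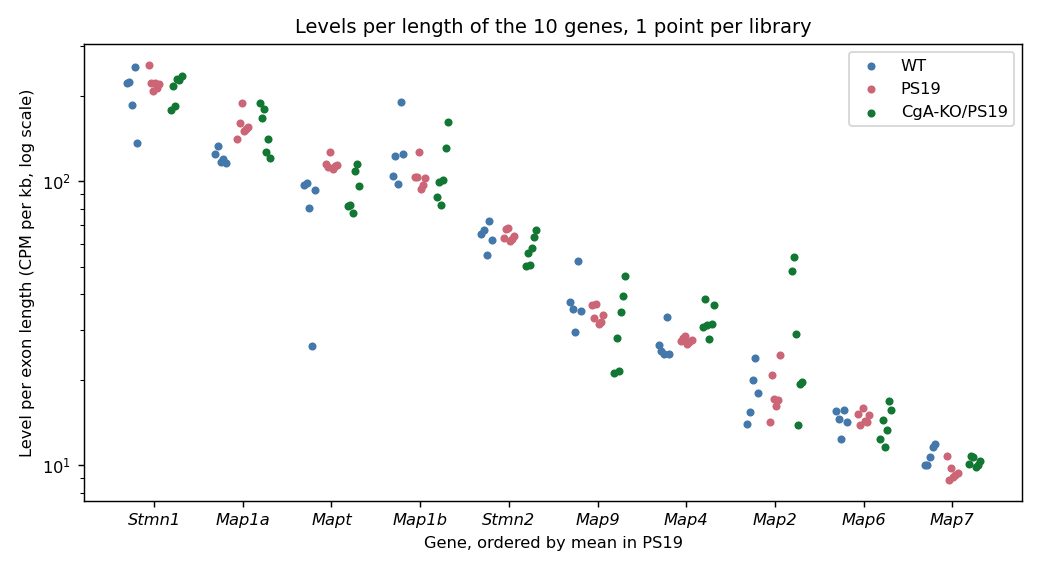
Level per exon length (CPM per kb, log axis) of the 10 genes, ordered by their mean in PS19, with 1 point per library coloured by genotype. By mean, Stmn1 lies at the top and Map7 at the bottom in all genotypes, and 1 WT library of Mapt lies at 26.4 CPM per kb.

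The first comparison, WT against PS19, is between mice without and with the transgene. All 9 striatal markers also separated these libraries without overlap, so the transgene and the striatal marker levels cannot be told apart here. None of the 10 genes passed a Benjamini-Hochberg adjusted p of 0.05 in the edgeR quasi-likelihood test, while 5.9% of the 23062 genes tested did. At an unadjusted p under 0.05 there were 3 of the 10 genes (Mapt, Map1a and Map7), against 20.9% of all genes. DESeq2 called 1 (Map1a), with 5.99% of the 39993 genes with any count called, a wider set than the 23062 genes tested. Limma voom called 2 (Map1a lower and Map7 higher), with 17.2% of the 23062 called. The shares of DESeq2 and of the other fits are therefore not directly comparable. Mapt and Map1a were lower in each WT library than in any PS19 library, 2 of the 10 genes. The libraries of the groups did not overlap for 9.52% of all genes, and for 5.13% with WT the lower. The median log2 fold change was -0.02 over the 10 genes and -0.01 over all genes.

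Mapt was at 733, 740, 606, 199 and 701 CPM in WT replicates 1 to 5 and at 866, 844, 952, 831, 856 and 862 CPM in PS19 replicates 1 to 6. The groups did not overlap, PS19 was tight, and WT replicate 4 was far below the other WT libraries. The log2 fold change of WT against PS19 was -0.54 (SE 0.23, 95% interval -1.03 to -0.06, edgeR adjusted p = 0.184). Without WT replicate 4, the shallowest library, it was -0.32 (SE 0.12, adjusted p = 0.121). That library also lay outside the range of the other 4 WT libraries for 8 of the 10 genes, with Map1a and Map7 inside. For Map6 it was outside only narrowly, at 142.6 against at most 141.9 CPM. The share of all genes for which that library lies outside is not given here, so this count has no baseline. Its mitochondrial share was 7.94% against 3.53 to 4.08% in the other WT libraries, and its 5 neuron markers summed to 12027 CPM against 6339 to 8656 CPM. The part of these differences in its levels was not tested.

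Map1a was at 1520, 1614, 1427, 1457 and 1410 CPM in WT and at 1718, 1955, 2300, 1825, 1864 and 1885 CPM in PS19. Here WT replicate 4 lay among the other WT libraries. The log2 fold change was -0.37 (SE 0.12, 95% interval -0.63 to -0.12, edgeR adjusted p = 0.0827), and it passed the threshold in 5 of 31 alternatives, DESeq2 among them (adjusted p = 0.0465). With the striatal marker score as a covariate it was -0.74 (adjusted p = 0.00533).

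Map1b had the opposite sign. It was at 1649, 1948, 1554, 3011 and 1974 CPM in WT and at 1643, 1647, 2013, 1491, 1539 and 1627 CPM in PS19, and the groups overlapped. Its log2 fold change was 0.29 (SE 0.18, 95% interval -0.10 to 0.68, edgeR adjusted p = 0.397), and 0.10 without WT replicate 4. The ratio of the 2 genes within a library is free of library scaling. The log2 ratio of Map1b over Map1a was 0.12, 0.27, 0.12, 1.05 and 0.49 in WT, and between -0.29 and -0.06 in PS19. All WT libraries had more Map1b than Map1a counts and all PS19 libraries fewer. Counts here were not corrected for exon length, 15.8 kb for Map1b and 12.2 kb for Map1a, so the sign of the ratio does not give the order per length. The difference of the mean log2 ratios was 0.62, with 0.41 ± 0.39 (SD, n = 5) in WT and -0.21 ± 0.08 (SD, n = 6) in PS19 (exact permutation test, two-sided, p = 0.00433, the smallest this design can give, adjusted p = 0.039 over 9 ratio tests). Without WT replicate 4 the difference was 0.46 in the same direction, with both groups still apart. The adjusted p passed 0.05 upwards when WT replicate 1, 2, 3 or 5 was left out, with differences of 0.60 to 0.70. The groups stayed apart in these cases, and with fewer libraries the smallest possible p is larger. The loss of the call therefore cannot show a weaker difference.

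The other 7 genes had estimates of smaller size between WT and PS19. Map7 had a log2 fold change of 0.19 (95% interval 0.03 to 0.35, edgeR adjusted p = 0.157), with 79.4 to 94.1 CPM in WT and 70.3 to 85.7 CPM in PS19. Map2 was at 230 to 391 CPM in WT and 233 to 402 CPM in PS19, a log2 fold change of -0.0034 with a wide interval of -0.61 to 0.60. Map4 (-0.04, interval -0.24 to 0.17), Map6 (-0.03, -0.24 to 0.18) and Stmn2 (-0.01, -0.21 to 0.19) had intervals within 0.25 of 0 on the log2 scale. Map9 (0.16, -0.23 to 0.55) and Stmn1 (-0.13, -0.41 to 0.14) were less well bounded. With the striatal marker score as a covariate, Map1b at 0.91, Map9 at 1.02 and Stmn2 at 0.33 were called higher in WT and Map1a lower, 4 of the 10 genes against 16.5% of all genes. The striatal score separated WT from PS19 libraries without overlap, so the genotype and this score cannot be told apart in this comparison.

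**Figure D2:**
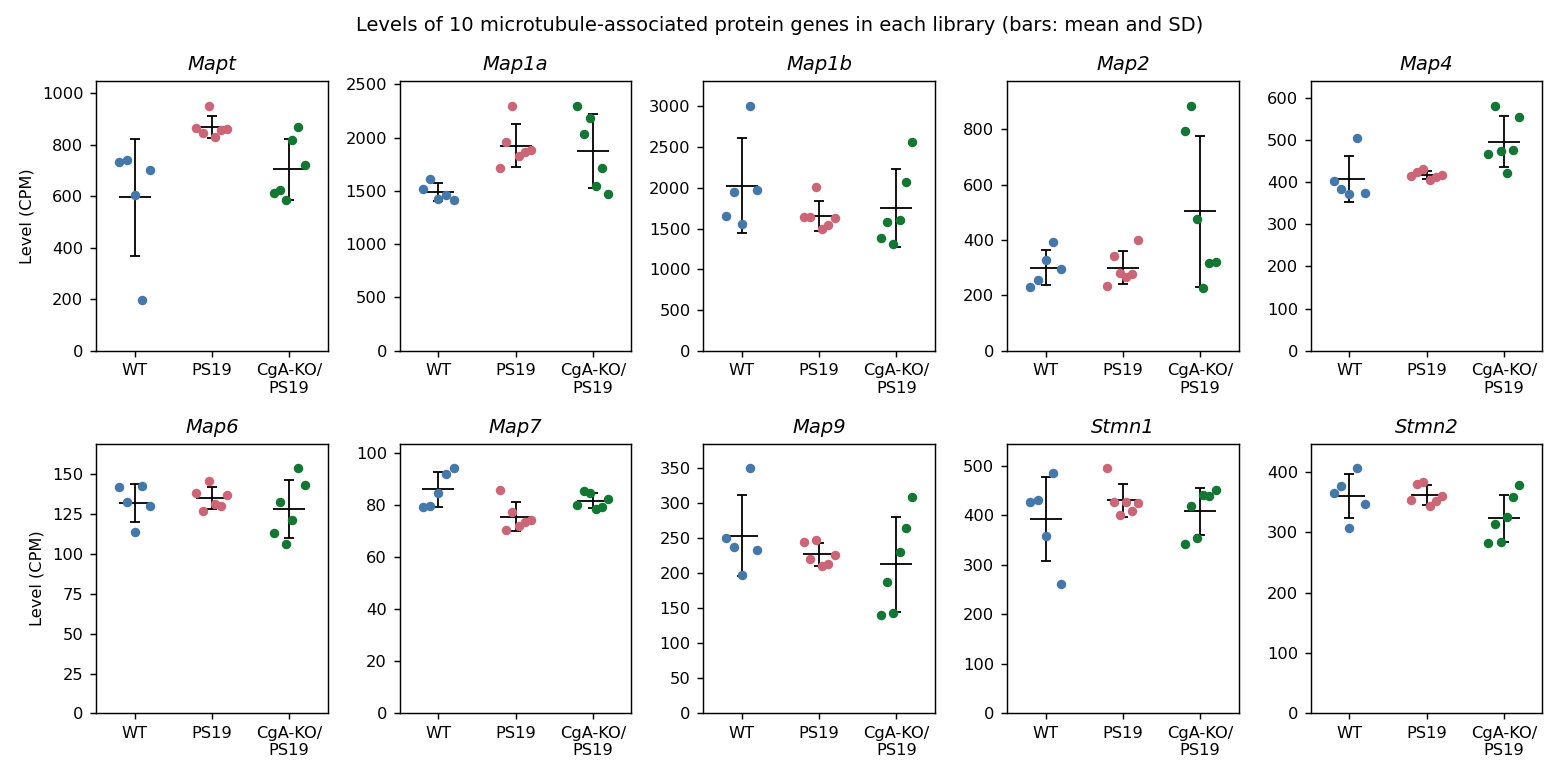
Level (CPM) of each of the 10 genes in each library, by genotype, with the mean and SD as bars. Mapt and Map1a are lower in all 5 WT libraries than in all 6 PS19 libraries, and Map2 in CgA-KO/PS19 spans 228 to 886 CPM.

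The second comparison, CgA-KO/PS19 against PS19, gives the difference that goes with loss of Chga in transgenic mice. None of the 10 genes passed the edgeR threshold, against 9.72% of all genes, and none had libraries that did not overlap, against 6.63%. Unadjusted p-values were under 0.05 for 2 genes (Map2 and Map4), against 27.8% of all genes. DESeq2 and limma voom each called 2, Map2 and Map4, both higher. The share called was 9.9% of the 39993 genes with any count for DESeq2 and 22.7% of the 23062 genes tested for voom. The median log2 fold change was -0.05 over the 10 genes and 0.03 over all genes.

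Map2 had the largest estimate. It was at 793, 886 and 478 CPM in CgA-KO/PS19 replicates 1 to 3, at 228, 318 and 322 CPM in replicates 4 to 6, and at 233 to 402 CPM in PS19. The first 3 libraries were above all PS19 libraries and the other 3 were among them or below. The log2 fold change was 0.75 (SE 0.28, 95% interval 0.17 to 1.33, edgeR adjusted p = 0.0894). Leaving out replicates 1 to 3 turned it to -0.06 (adjusted p = 0.885), leaving out replicates 4 to 6 made it 1.25 (adjusted p = 0.000572), and leaving out replicate 4 made it 0.91 (adjusted p = 0.0221).

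Map4 was at 465, 581, 473, 423, 475 and 555 CPM in CgA-KO/PS19 and at 404 to 432 CPM in PS19. Of the 6 knockout libraries 5 were above the highest PS19 library. The log2 fold change was 0.25 (SE 0.09, 95% interval 0.05 to 0.45, edgeR adjusted p = 0.0985), and 6 of 34 alternatives called it. Without replicates 1 to 3 it was 0.20 (adjusted p = 0.287) and without replicates 4 to 6 it was 0.27 (adjusted p = 0.0566).

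Mapt was at 614, 622, 584, 817, 868 and 722 CPM in CgA-KO/PS19, with 5 of 6 libraries below the lowest PS19 library. The log2 fold change was -0.30 (SE 0.22, 95% interval -0.76 to 0.16, edgeR adjusted p = 0.387). Without WT replicate 4, which enters this fit through the shared estimate of the spread, it was -0.30 with an adjusted p of 0.0548. Without CgA-KO/PS19 replicates 1 to 3 it was -0.12 (adjusted p = 0.847), and without replicates 4 to 6 it was -0.53 (adjusted p = 0.175). Prnp followed the same order, with 1236 to 1348 CPM in replicates 1 to 3 and 1676 to 2078 CPM in replicates 4 to 6. It was called lower in CgA-KO/PS19 than in PS19, at a log2 fold change of -0.44 (edgeR adjusted p = 0.0304). The part of this difference in the Mapt values was not tested.

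Of the remaining genes, Stmn2 had a log2 fold change of -0.16 (95% interval -0.35 to 0.03, edgeR adjusted p = 0.251) and Map7 of 0.11 (-0.04 to 0.26). Map1a (-0.04, -0.28 to 0.21), Map1b (0.08, -0.29 to 0.45), Map6 (-0.07, -0.27 to 0.13), Map9 (-0.09, -0.47 to 0.28) and Stmn1 (-0.08, -0.34 to 0.18) had estimates under 0.1 in size. The ratios did not pass either: Mapt over Map2 differed by -0.91 on the log2 scale (exact permutation test, two-sided, p = 0.0693, adjusted p = 0.208) and by -0.07 without replicates 1 to 3.

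Leaving out replicates 1 to 3 keeps only knockout libraries with Ddx3y near 0, beside PS19 libraries of both kinds, and leaving out 4 to 6 does the reverse. The libraries with and without Ddx3y were therefore also fitted apart, with 3 or fewer per genotype and with the choice made after the data were seen. With Ddx3y, 4 of the 10 genes were called between CgA-KO/PS19 and PS19, against 31.1% of all genes. These were Map2 at a log2 fold change of 1.35 (edgeR adjusted p = 0.00375), Mapt at -0.53 (0.00403), Map9 at -0.58 (0.0114) and Stmn2 at -0.33 (0.0288). In the libraries without Ddx3y none was called, against 0.806% of all genes, with Map2 at -0.14 (adjusted p = 0.774), Mapt at -0.10 (0.924), Map9 at 0.29 (0.45) and Stmn2 at -0.01 (0.976). Whether the fold changes differ between these sets was not tested. For WT against PS19 none was called in either set, with Mapt at -0.35 (adjusted p = 0.129) with Ddx3y and -0.93 (0.248) without.

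**Figure D3:**
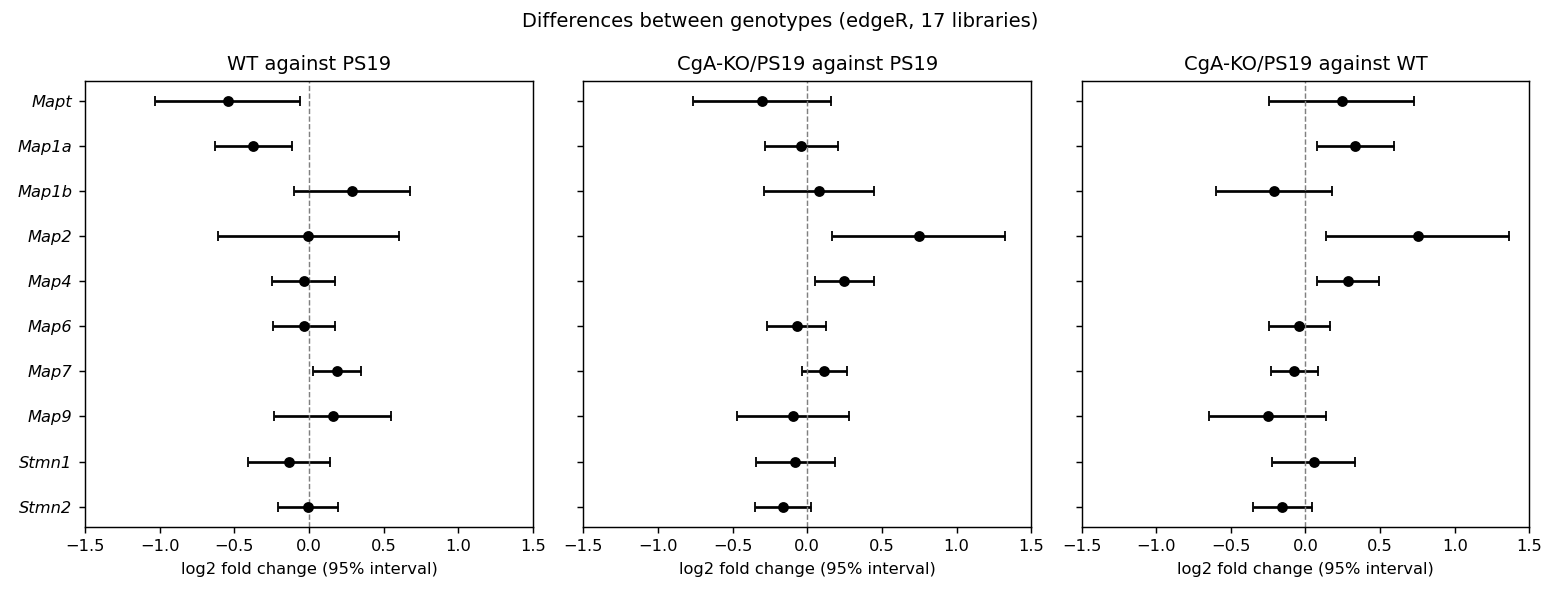
Log2 fold change (points) and 95% interval (bars) of the 10 genes in the 3 comparisons, from edgeR on 17 libraries. Map2 has the largest estimates, 0.75 in both comparisons of CgA-KO/PS19, and its intervals are wide.

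The 6 CgA-KO/PS19 libraries fell into replicates 1 to 3 and 4 to 6 for most of these genes, which is given as a description without a test, since the split was seen in the data. The ranges of the 2 sets did not overlap for 7 of the 10 genes, against 35.1% of all genes. Map1a and Map2 were higher in replicates 1 to 3, with means of 2170 against 1577 CPM for Map1a and 719 against 290 CPM for Map2. Mapt (607 against 803 CPM), Map1b (1425 against 2081 CPM), Map9 (157 against 268 CPM), Stmn1 (371 against 444 CPM) and Stmn2 (293 against 354 CPM) were lower there. Map4, Map6 and Map7 overlapped. In replicates 1 to 3 the mitochondrial share was above that of all other libraries, and 5 oligodendrocyte markers summed to 1831 to 2167 CPM against 1240 to 1375 CPM in replicates 4 to 6. The 4 astrocyte markers summed to 1073 to 1191 CPM against 585 to 826 CPM, and the striatal markers to 406 to 1726 CPM against 188 to 216 CPM. The 5 neuron markers summed to 5671, 9089 and 5539 CPM in replicates 1 to 3 and to 9845, 12084 and 14593 CPM in replicates 4 to 6, also without overlap. Ddx3y separated the same sets, at 5.67, 6.22 and 5.70 on the log2(CPM + 1) scale against values near 0, so the split and this gene cannot be told apart. No marker of the oligodendrocyte, astrocyte or striatal lists was at 0 in these libraries, and the part of these differences in the levels of the 10 genes was not tested apart from the covariate fits. Such sums weigh the most abundant genes most, and the members of a list can differ. For CgA-KO/PS19 against PS19, the astrocyte markers Aqp4 (0.67) and Slc1a3 (0.51) had estimates above 0, and Gja1 (-0.33) and Aldh1l1 (-0.16) below.

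**Figure D4:**
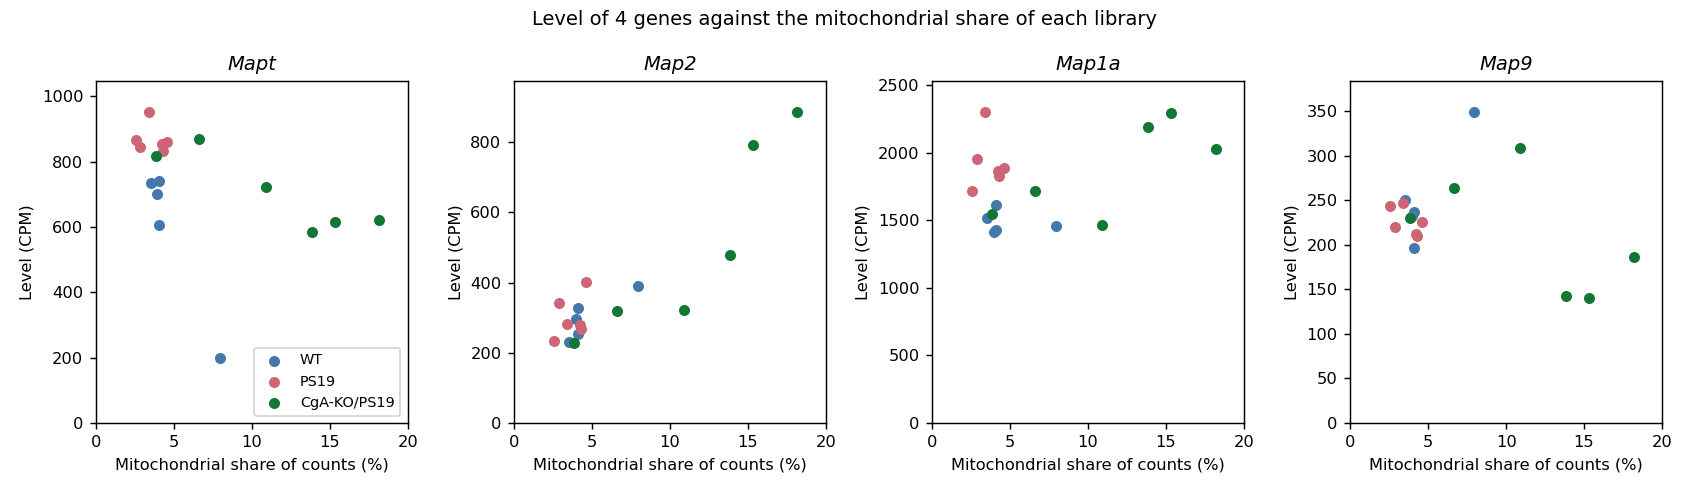
Level (CPM) of Mapt, Map2, Map1a and Map9 against the mitochondrial share of counts (%) in each of the 17 libraries, coloured by genotype. The 3 CgA-KO/PS19 libraries with shares of 13.8 to 18.2% have Map2 at 478 to 886 CPM and Map9 at 140 to 187 CPM.

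The third comparison, CgA-KO/PS19 against WT, differs by both the transgene and the knockout. None of the 10 genes passed in edgeR, against 6.46% of all genes, and none had libraries that did not overlap, against 3.6%. Unadjusted p-values were under 0.05 for 3 genes (Map1a, Map2 and Map4), against 21.7% of all genes. DESeq2 called Map4, with 6.56% of the 39993 genes with any count called. Limma voom called Map1a and Map4, with 10.7% of the 23062 genes tested called. In the libraries with Ddx3y alone 4 were called, Map1a, Map2 and Map4 higher and Map9 lower, against 20.7% of all genes, and in those without it none, against 3.05%. The median log2 fold change was 0.01 for the 10 genes and for all genes.

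Map4 had a log2 fold change of 0.28 against WT (SE 0.10, 95% interval 0.08 to 0.49, edgeR adjusted p = 0.0984). It passed without WT replicate 4, at 0.37 (adjusted p = 0.0175), and without that library and CgA-KO/PS19 replicates 1 to 3, at 0.34 (adjusted p = 0.0227). WT was at 402, 383, 373, 503 and 373 CPM, so replicate 4 was the only WT library within the range of the knockout libraries. Map1a was 0.33 higher (SE 0.12, edgeR adjusted p = 0.113), and 0.09 without CgA-KO/PS19 replicates 1 to 3. Map2 was 0.75 higher (SE 0.29, edgeR adjusted p = 0.136), and -0.05 without those 3. Mapt differed by 0.24 (95% interval -0.24 to 0.73, edgeR adjusted p = 0.595), and by 0.02 without WT replicate 4. Map1b (-0.21), Map9 (-0.25), Stmn2 (-0.16), Map7 (-0.07), Map6 (-0.04) and Stmn1 (0.06) had intervals that included 0. The log2 ratio of Stmn2 over Stmn1 was -0.33 ± 0.08 (SD, n = 6) in CgA-KO/PS19 and -0.10 ± 0.28 (SD, n = 5) in WT, a difference of -0.24 (exact permutation test, two-sided, p = 0.00866, adjusted p = 0.039 over 9). WT replicate 5, at 0.41, carried much of it, since the difference was -0.11 without that library (adjusted p = 0.0855). The call was lost in 11 of 19 alternatives, all with fewer libraries, which raises the smallest possible p. Apart from WT replicate 5 left out, the differences in these 11 were -0.27 to -0.21.

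**Figure D5:**
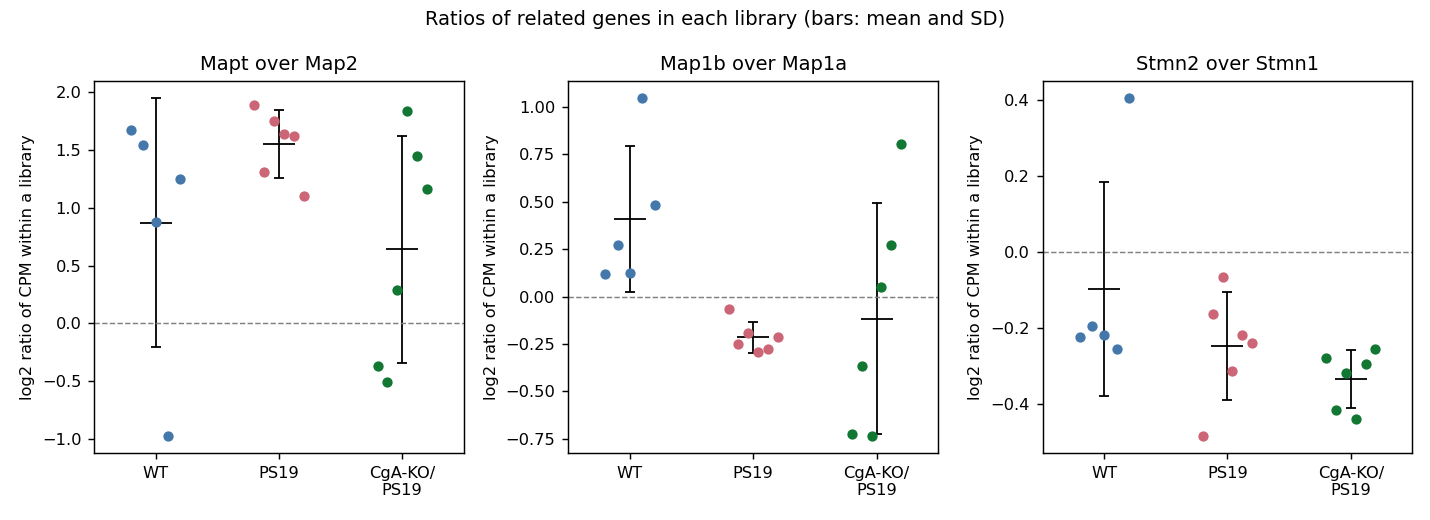
Log2 ratio of CPM within each library for 3 pairs of related genes, by genotype, with the mean and SD as bars. Map1b over Map1a, without correction for exon length, is above 0 in all 5 WT and below 0 in all 6 PS19 libraries, and CgA-KO/PS19 spans -0.74 to 0.81.

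Other genes of the microtubule system were counted from hand-written lists. Of 27 other microtubule-associated protein genes tested, WT had 4 called higher than PS19 (3.95% of all genes) and 1 lower (1.95%), with Mapre2, a plus-end binding protein, at a log2 fold change of 1.54 (edgeR adjusted p = 0.0191) and Dclk3, a doublecortin-like kinase, at 0.54 (0.0194). In CgA-KO/PS19 against PS19, 0 were higher (5.5% of all genes) and 1 was lower (4.22%), Map6d1, a relative of Map6, at -0.41 (adjusted p = 0.0124), ahead of Map7d1 at -0.26 (0.0575). Against WT, 0 were higher (3.56%) and 3 lower (2.89%), led by Dclk3 at -0.75 (0.0037) and Nav1 at -0.59 (0.0224).

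Of 14 tubulin genes, none was called between WT and PS19 (5.9% of all genes), where Tuba1b (-0.23, edgeR adjusted p = 0.178) and Tuba1a (0.18, 0.273) had the smallest p-values. In CgA-KO/PS19 against PS19 only the neuronal beta-tubulin Tubb3 was called, at -0.62 (adjusted p = 0.0125), against 4.22% of all genes called lower, with Tubb4b next at -0.38 (0.0708). Against WT none was called (6.46% of all genes), with Tubb3 at -0.47 (0.0604) and Tubb2a at -0.50 (0.0628). Median log2 fold changes of the tubulins were -0.13, -0.22 and -0.10 in the 3 comparisons.

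Among 20 genes that modify tubulin or sever microtubules, 1 was called higher in WT than in PS19 (3.95% of all genes), the severing enzyme Fign at 2.02 (edgeR adjusted p = 0.0215), ahead of the tyrosine ligase Ttl at -0.27 (0.117). In CgA-KO/PS19 against PS19, 2 were lower (4.22% of all genes), the polyglutamylase subunit Tpgs1 at -0.58 (0.0476) among them. None was called against WT (6.46%), where Sirt2 (0.32, 0.0677) and Fign (-1.18, 0.167) led.

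Of 17 motor genes, none was called between WT and PS19 (5.9% of all genes), led by the kinesins Kif5a at -0.79 (edgeR adjusted p = 0.0747) and Kif5c at -0.23 (0.147). In CgA-KO/PS19, 0 were higher (5.5% of all genes) and 4 lower (4.22%) than in PS19, all of dynein and its partner dynactin, with Dctn1 at -0.38 (0.0163) and Dync1h1 at -0.48 (0.0362). Against WT 2 were higher (3.56%) and 0 lower (2.89%), Kif5b at 0.85 (0.00926) and Kif5a at 1.22 (0.00973). The striatal markers moved with all 3 comparisons, 1 of the 9 being called lower in CgA-KO/PS19 than in WT, and the glial, neuron and mitochondrial values and Ddx3y moved with the split of CgA-KO/PS19, as given above. Their part in the calls of these 4 lists was not tested.

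The genes whose centred log2(CPM + 1) profile over the 17 libraries was nearest to that of Mapt were G6pc3, Lifr, Klf9, Gatad2a and Fto, with mean absolute differences of 0.11, 0.13, 0.14, 0.15 and 0.15. Of the other 9 genes Stmn2 was nearest to Mapt, at 0.26. Map6 and Stmn2 were nearest to each other at 0.06, Map1b and Map9 at 0.13, and Map4 and Map7 at 0.14. Stmn1 was nearest to Stmn2 (0.11), Map1a to Map4 (0.21) and Map2 to Map4 (0.35). This difference is small between any genes that vary little, so near genes need not share a pattern over the libraries. All 17 points share these libraries and their composition, and no test was made.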

How the data were processed

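Prefrontal cortex RNA of 17 mice was sequenced from polyA-selected libraries. The authors trimmed reads with Trimmomatic 0.39, aligned them with STAR 2.7.10b to mm10, quantified them with StringTie 1.3.6 and deposited whole-number counts per gene, without normalization. These counts are made from coverage and an assumed read length, so counting error cannot be read from them directly. The annotation release and strand setting are not given in the sources used here.

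Counts were analysed with edgeR 4.0.16 in R 4.3.3 (TMM, filterByExpr, quasi-likelihood, 17 libraries, no covariate), with Benjamini-Hochberg adjustment over 23062 genes and a threshold of 0.05. DESeq2 1.42.0 and limma 3.58.1 (voom) were alternatives, beside other normalizations, filters, covariates and left-out libraries. Ratios of CPM within libraries were compared by exact permutation tests with adjustment over 9. Coordinates and coding sequences came from GENCODE M21 (GRCm38), matched by symbol. Sex per library was not given in the labels, and Ddx3y, a Y-linked gene, was detected in replicates 1 to 3 of each genotype and near 0 in the others. The paper reports 3 males and 2 or 3 females for each sequenced group, the same numbers as libraries with and without Ddx3y. The 10 genes were described whatever their values, with the 2 genes of smallest p per other list and comparison, except that some genes and sequences are not reported here. Genes and lists were chosen with earlier results of these data known. Replicates were separate mice per the study's methods, yet PS19 replicates 4 to 6 were unusually alike. CgA-KO/PS19 replicates 1 and 3 were the closest pair of their genotype, with an SD of 0.25 for the log2 ratio of their levels. Averaging PS19 4 to 6 into 1 library and CgA-KO/PS19 1 and 3 into another was an alternative.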

Additional observations from a re-analysis of the deposited data

Results flagged for a closer look

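Of 39 sets of values tested (10 genes and 3 ratios in 3 genotypes), 7 held 1 library whose gap to its nearest neighbour was large against the range of its genotype. Chance flags about 1 in 20 such sets. In WT, replicate 4 accounted for 3 of these, with Mapt at 199 CPM, Map1b at 3011 CPM and Map4 at 503 CPM. WT replicate 5 stood apart for the log2 ratio of Stmn2 over Stmn1, at 0.41. In PS19, replicate 3 stood apart for Mapt at 952 CPM and Map1b at 2013 CPM, and replicate 1 for Stmn1 at 494 CPM.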

How the results depend on the processing

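The differences of the 10 genes in 3 comparisons were recomputed 990 times. Of these values 862 kept their direction and side of the threshold, 47 kept their direction and passed it newly, and 81 changed sign. Among the 81, Stmn2 for WT against PS19 with the striatal score was also called, at 0.33 (edgeR adjusted p = 0.0396). Mapt lay between -0.93 and -0.32 for WT against PS19, -0.53 and -0.10 for CgA-KO/PS19 against PS19, and -0.18 and 0.83 for CgA-KO/PS19 against WT, and was called once, at -0.53 (edgeR adjusted p = 0.00403) for CgA-KO/PS19 against PS19 in libraries with Ddx3y. The causes of the changes below were not tested.

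The main fit called 0 of the 10 genes in each comparison, and the alternatives below have the share of genes called in brackets. That share is of the genes in each alternative, for DESeq2 the 39993 with any count. For WT against PS19 the counts were 1 with DESeq2 (5.99%), with only the 2 genotypes (10.5%) and with Ddx3y as covariate (6.55%). They were 2 with voom (17.2%) and 4 with the striatal score (16.5%). For CgA-KO/PS19 against PS19 they were 2 with DESeq2 (9.9%) and voom (22.7%), and 1 with at least 10 counts (14.8%) and with the oligodendrocyte score (15.8%). They were 3 without CgA-KO/PS19 4 to 6 (28.2%) and 4 with only libraries with Ddx3y (31.1%). For CgA-KO/PS19 against WT they were 1 with DESeq2 (6.56%), with the oligodendrocyte score (8.8%) and without WT 4 and CgA-KO/PS19 1 to 3 (8.62%). They were 2 with voom (10.7%), 4 with only libraries with Ddx3y (20.7%), 5 with the striatal score (21.7%) and 5 without CgA-KO/PS19 4 to 6 (21.7%). Leaving out 1 library gave 0 to 0, 0 to 2 and 0 to 2. For WT against PS19 the share of all genes called was then 2.79 to 7.21%. The counts of 2 came without CgA-KO/PS19 replicate 4 (17.3% against PS19 and 8.45% against WT). Without WT replicate 4 there was 1 in both (15 and 8.89%), and without CgA-KO/PS19 replicate 6 there was 1 against WT (8.07%). Calls among all genes, 1361, 2242 and 1489, ranged widely, with 2396, 3958 and 2623 for DESeq2, 3967, 5229 and 2458 for voom, 425, 168 and 579 with near-identical libraries averaged, 2275, 2869 and 266 with only 2 genotypes, 128, 6713 and 4474 with only libraries with Ddx3y and 1368, 190 and 718 with only those without. Replicate numbers were shared between genotypes. Libraries of the same number had correlations of -0.23 to 0.44 between genotypes, with 2 of 16 over 0.1. These values cannot decide whether the numbers pair the samples. The replicate block gave 0 of the 10 genes called in each comparison and 660, 654 and 614 genes in all.

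Sign changes for WT against PS19 were Map2 at 0.0041 (DESeq2), 0.011 (DESeq2 size factors), 0.020 (at least 10 counts), 0.0025 (2 genotypes), 0.035 (replicate block), 0.037 (averaged) and 0.054 (oligodendrocyte score), Stmn2 at 0.0049 (size factors), 0.014 (at least 10 counts), 0.011 (replicate block) and 0.33 (striatal score), Map9 at -0.035 (oligodendrocyte score), and Map4 at 0.094, Map6 at 0.31 and Stmn1 at 0.32 (striatal score). For CgA-KO/PS19 against PS19 they were Map1a at 0.031 (at least 10 counts) and 0.025 (voom), Map9 at 0.033 (oligodendrocyte score), and Map6 at 0.071, Map9 at 0.23 and Stmn1 at 0.12 (striatal score). For CgA-KO/PS19 against WT they were Map6 at 0.0044 (averaged), Map1b at 0.10, Map6 at 0.090 and Map9 at 0.068 (oligodendrocyte score), and Stmn1 at -0.20 (striatal score). Leaving out CgA-KO/PS19 1 to 3, chosen after seeing the data, gave against PS19 Map2 at -0.064, Map6 at 0.039, Map9 at 0.23 and Stmn1 at 0.035, and against WT Map1b at 0.041, Map2 at -0.047, Map6 at 0.083, Map9 at 0.085 and Mapt over Map2 at 0.61. Leaving out WT 4 as well, also chosen after seeing the data, gave Map2 at -0.060, Map6 at 0.043, Map9 at 0.24 and Stmn1 at 0.039 against PS19, and Map1b at 0.22, Map6 at 0.11, Map9 at 0.22 and Stmn2 at 0.018 against WT. Leaving out CgA-KO/PS19 4 to 6, also chosen after seeing the data, gave Map1a at 0.16 and Map1b at -0.23 against PS19 and Stmn1 at -0.087 against WT. It called Map2 at 1.25 (edgeR adjusted p = 0.000572), Map9 at -0.54 (0.0151) and Stmn2 at -0.32 (0.0138) against PS19, 28.2% of all genes being called, and Map1a, Map2, Map4, Map9 and Stmn2 against WT. Only libraries with Ddx3y, chosen likewise, gave Map1b at -0.039 and Map9 at -0.051 for WT against PS19, Map1a at 0.14 and Map1b at -0.30 for CgA-KO/PS19 against PS19, and Mapt at -0.18, Map7 at 0.049 and Stmn1 at -0.11 for CgA-KO/PS19 against WT. Only libraries without it gave Map2 at 0.091, Map4 at 0.063, Map6 at 0.0080 and Stmn2 at 0.069, then Map2 at -0.14, Map6 at 0.053, Map9 at 0.29 and Stmn1 at 0.060, and then Map2 at -0.23 and Map6 at 0.045.

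With 1 library left out at a time, signs changed within these ranges: Map2 -0.12 to 0.0996, Map6 -0.061 to 0.020 and Stmn2 -0.054 to 0.047 for WT against PS19, Map1a -0.10 to 0.031, Map1b -0.061 to 0.16, Map9 -0.23 to 0.0056 and Map1b over Map1a -0.087 to 0.22 for CgA-KO/PS19 against PS19, and Map6 -0.098 to 0.014, Stmn1 -0.058 to 0.14 and Mapt over Map2 -0.69 to 0.0012 for CgA-KO/PS19 against WT. The ratio Map1b over Map1a in WT against PS19 was 0.46 to 0.70 with 1 library left out and 0.60 (adjusted p = 0.0716) with near-identical libraries averaged in the exact permutation test, and lost its call in 5 of 18 alternatives, these being the averaged libraries and WT replicate 1, 2, 3 or 5 left out. Stmn2 over Stmn1 in CgA-KO/PS19 against WT was -0.28 to -0.11, -0.24 and, without CgA-KO/PS19 1 to 3, -0.23, and lost its call in 11 of 19 alternatives. With fewer samples the smallest possible p is larger, which bears on these ratio calls.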
